A study of Rattus norvegicus with 38 samples.

Results

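miR-26a and miR-26b are the main (5p) products of a pair of rat microRNA genes, and their levels were followed in livers of male Fischer F344 rats that had eaten a diet with 1 of 8 chemicals, or control diet, for 90 days. All probes that the array's annotation assigns to rno-miR-26a or rno-miR-26b were taken, which gave 2 of the 350 rat miRNAs on the array and 4 of its 938 probes. Rats ate 1 of the following: 4 ate Diethylthiourea (2500 ppm), 5 ate Benzophenone (1250 ppm), 3 ate Phenobarbital (1000 ppm) and 4 ate Diethylhexylphthalate (12000 ppm). A further 4 ate Monuron (1500 ppm), 4 Chlorendic Acid (1250 ppm), 4 Methapyrilene HCl (250 ppm) and 5 2-acetylaminofluorene (40 ppm), and 5 ate control diet. The rats were 8 weeks old when obtained, none carried a genetic change named in the labels, and each of the 38 arrays held total RNA of 1 liver. Diethylthiourea is a thiourea compound, Benzophenone a photoinitiator, Phenobarbital a sedative barbiturate and activator of the nuclear receptor CAR, Diethylhexylphthalate a plasticiser that activates PPAR-alpha, Monuron a phenylurea herbicide, Chlorendic Acid a flame retardant intermediate, Methapyrilene HCl an antihistamine and 2-acetylaminofluorene an aromatic amine that forms DNA adducts. As general knowledge 6 of them cause liver tumours in rats: Phenobarbital, Diethylhexylphthalate, Monuron, Chlorendic Acid, Methapyrilene HCl and 2-acetylaminofluorene. Diethylthiourea and Benzophenone are not known for liver tumours in the rat. Which chemical belongs to which class is not in the labels, and 1 dose and 1 time were studied for each.

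A miRNA guides Argonaute to messenger RNAs that pair with its seed, and the messages are then translated less and degraded. The miR-26 genes lie inside genes of the CTDSP phosphatases and are transcribed in most tissues, liver among them. In human liver cancer miR-26a is often lower than in the surrounding liver, and in a mouse model of liver cancer its delivery slowed tumour growth. Cyclins of the D and E type and the histone methyltransferase EZH2 are known targets in human and mouse cells.

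The mature sequences are shown because they tell how alike the members are. Both are from RefSeq on build GRCr8, written 5′ to 3′ with the seed (bases 2 to 8) in capitals.

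rno-miR-26a-5p: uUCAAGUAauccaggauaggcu

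rno-miR-26b-5p: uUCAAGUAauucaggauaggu

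The seeds are identical. Counted from 1 at the 5′ end, the members differ at 2 of 21 shared positions, C11U and C21U (the miR-26a base first), and miR-26a is longer, with 22 against 21 bases. Of 693 rat mature miRNAs in the RefSeq table, only these 2 carry this seed. Probe sequences were not used here, so how far a probe of one member reads the other was not tested. The precursor hairpins, with the mature 5p arm in capitals, are as follows.

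Mir26a, chr8:127633048-127633137, plus strand: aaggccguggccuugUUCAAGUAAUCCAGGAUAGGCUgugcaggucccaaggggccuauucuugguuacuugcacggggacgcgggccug

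Mir26b, chr9:83425709-83425793, plus strand: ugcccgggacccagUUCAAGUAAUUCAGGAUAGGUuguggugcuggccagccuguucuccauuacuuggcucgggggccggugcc

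The Mir26a hairpin lies within the bounds of Ctdspl (chr8:127520478-127644999) and the Mir26b hairpin within those of Ctdsp1 (chr9:83422755-83428411), both phosphatases of the RNA polymerase II C-terminal domain. The table used here gives no exons, so exon and intron were not told apart. The array also carries 4 probes for miR-26b*, the opposite arm of the Mir26b hairpin (rno-miR-26b-3p in RefSeq).

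rno-miR-26b-3p: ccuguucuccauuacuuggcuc

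That arm was detected on 0 of 38 arrays, whereas all 4 probes of miR-26a and miR-26b were detected on all 38. The file names no probe for the opposite arm of miR-26a.

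A level below is log2 of the signal of the miRNA's brightest probe over the array's own 75th percentile of signal, so a level of 1 is 2 times that percentile. Of the 350 miRNAs, 129 passed the detection filter (present throughout 1 or more of the 9 groups) and were tested. The liver identity of the samples held on all 38 arrays: the hepatocyte miRNAs miR-122 (levels 5.84 to 6.73), miR-192 and miR-194 were detected on each. The 38 arrays lay on 6 slides, with control arrays on slides 1, 3 and 4, and neither Monuron nor Methapyrilene HCl shared a slide with control. Each probe was printed as 10 spots, and on 7 arrays between 2.81% and 16.1% of spots read under 50% of their own probe's median without being marked as outliers. On the other 31 arrays that share was 0.153% or less. Dim spots of the 4 miR-26 probes occurred on 3 arrays, with 9 of 40 spots on Methapyrilene HCl replicate 2, 7 of 39 on control replicate 2 and 5 of 37 on control replicate 1. Levels rest on the mean of the spots, as in the general processing of the series, and the differences from the 75th percentile of the spots are given after them.

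miR-26a lay between 1.46 and 2.08 on the 38 arrays, with a median of 1.86. In animals fed Diethylthiourea its levels were 1.84, 1.98, 1.97 and 1.76, and with Benzophenone they were 1.99, 1.46, 1.96, 1.78 and 1.71. With Phenobarbital they were 1.93, 1.90 and 1.94, the tightest group. Diethylhexylphthalate gave 1.79, 1.70, 1.91 and 1.53, and Monuron 1.93, 2.05, 2.06 and 1.95, all 4 above the control mean. Chlorendic Acid gave 1.76, 1.87, 2.00 and 1.90. Methapyrilene HCl gave 1.79, 1.57, 1.72 and 1.71, all 4 below the control mean. 2-acetylaminofluorene gave 1.83, 1.64, 1.97, 1.71 and 1.85, against 1.46, 1.85, 2.08, 1.99 and 2.00 in control livers. Control replicate 1 was the lowest control. The other controls ran from 1.85 to 2.08, and of the diets only Methapyrilene HCl (1.57 to 1.79) lay wholly outside that narrower range.

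miR-26b lay between 0.243 and 1.27, with a median of 1.04. Its levels were 1.0, 1.04, 1.02 and 1.01 with Diethylthiourea, a narrow group, and 1.17, 0.58, 0.97, 1.08 and 0.59 with Benzophenone, where replicates 2 and 5 were low. Phenobarbital gave 1.16, 1.13 and 1.04, Diethylhexylphthalate 1.03, 0.93, 1.23 and 0.96, Monuron 1.25, 1.08, 1.16 and 0.95, and Chlorendic Acid 1.12, 1.09, 1.15 and 1.14. Levels of these 4 groups lay within the control range. Methapyrilene HCl gave 1.12, 0.55, 1.03 and 0.79, where the lowest is the array with 9 dim spots. 2-acetylaminofluorene gave 0.94, 0.80, 0.24, 1.1 and 0.86, against 1.27, 0.78, 1.13, 1.09 and 1.21 in control livers. Of the 5 animals fed 2-acetylaminofluorene, 4 lay below the control mean, and replicate 3 was the lowest of all 38 arrays. Those 4 were on slides 5 and 6, which held no control, while replicate 4 (1.1) was on slide 3 with 2 controls.

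**Figure D1:**
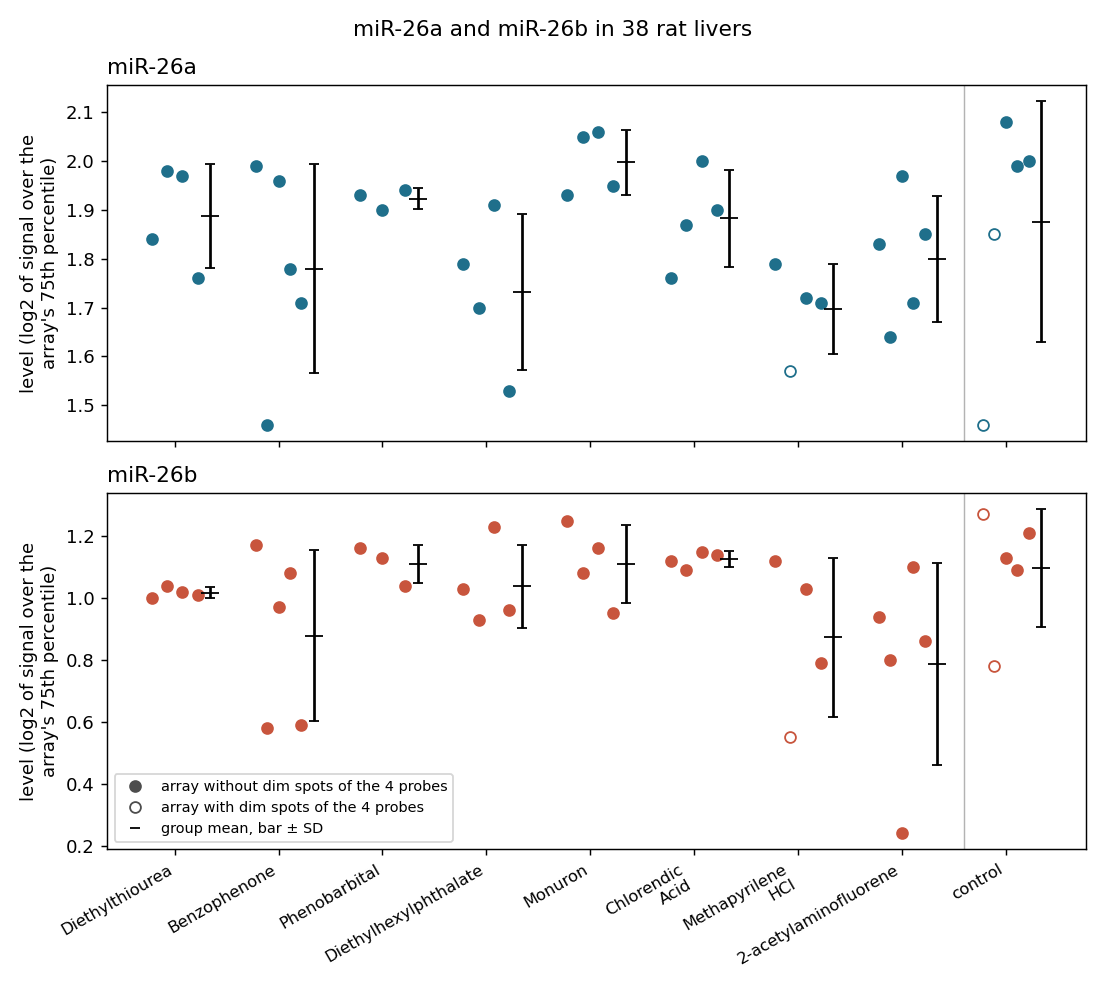
Levels of miR-26a (top) and miR-26b (bottom) on each of 38 arrays, as log2 of the signal over the array's 75th percentile, by diet, with control at the right. Each point is 1 liver, open points are the 3 arrays with dim spots of the 4 probes, and bars are the group mean ± SD; every diet overlaps control for both miRNAs, and 2-acetylaminofluorene replicate 3 is the lowest miR-26b level at 0.24.

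By group mean, miR-26a ran from Monuron (2.00 ± 0.0699, SD, n = 4) through Phenobarbital (1.92), Diethylthiourea (1.89), Chlorendic Acid (1.88), control (1.88 ± 0.247, n = 5), 2-acetylaminofluorene (1.80), Benzophenone (1.78) and Diethylhexylphthalate (1.73) to Methapyrilene HCl (1.70 ± 0.0893, n = 4). Of the 8 steps between neighbours in this order, only that between Monuron and Phenobarbital (0.0735) was larger than the pooled SD of the 2 groups (0.0559), and their ranges overlapped. miR-26b ran from Chlorendic Acid (1.13 ± 0.0255, n = 4) through Phenobarbital (1.11), Monuron (1.11), control (1.1 ± 0.188, n = 5), Diethylhexylphthalate (1.04), Diethylthiourea (1.02), Benzophenone (0.878) and Methapyrilene HCl (0.870) to 2-acetylaminofluorene (0.788 ± 0.325, n = 5). No step between neighbours in the miR-26b order exceeded the pooled SD. In both orders the ranges of all neighbours overlapped, so neither order separates adjacent diets.

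Neither miRNA passed the test against control with any of the 8 diets (limma over all 129 miRNAs, with p adjusted by Benjamini-Hochberg within a comparison and a threshold of 0.05). Before adjustment only miR-26b with 2-acetylaminofluorene had a p under 0.05, where 25.6% of all tested miRNAs did. The share of all tested miRNAs called was 0% with Diethylthiourea (8 of 129, 6.2%, at an unadjusted p under 0.05), 4.65% with Benzophenone, 3.88% with Phenobarbital, 14.7% with Diethylhexylphthalate, 3.88% with Monuron, 29.5% with Chlorendic Acid, 4.65% with Methapyrilene HCl and 11.6% with 2-acetylaminofluorene. Both members overlapped control on all 8 diets. The share of tested miRNAs whose range did not overlap control was 0.775% with Diethylthiourea, 3.88% with Benzophenone, 10.9% with Phenobarbital, 19.4% with Diethylhexylphthalate, 6.98% with Monuron, 23.3% with Chlorendic Acid, 5.43% with Methapyrilene HCl and 7.75% with 2-acetylaminofluorene. In the F test over the 8 differences, which called 45% of the tested miRNAs, miR-26a had an adjusted p of 0.274 and miR-26b of 0.184. All 8 comparisons use the same 5 control arrays, so a control array that stands apart enters each of them. Each animal had 1 array, so the spread that the p-values rest on holds differences between animals, arrays and slides together. In whole liver fewer cells of a type and less RNA per cell cannot be told apart.

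For miR-26a the largest differences were those of Methapyrilene HCl (log2 -0.18 ± 0.11 SE, 95% interval -0.40 to 0.04, adjusted p = 0.406 by limma) and Diethylhexylphthalate (-0.15 ± 0.11, -0.36 to 0.07, 0.372). With 1 array left out the Methapyrilene HCl difference ran from -0.28 to -0.13, with limma adjusted p from 0.115 to 0.667. Monuron differed by 0.12 ± 0.11 (-0.10 to 0.34) and Benzophenone by -0.10 ± 0.10 (-0.30 to 0.11). 2-acetylaminofluorene differed by -0.08 ± 0.10 (-0.28 to 0.13), Phenobarbital by 0.05, Diethylthiourea by 0.01 and Chlorendic Acid by 0.00. In linear terms the intervals reached from a fold of 0.759 with Methapyrilene HCl to 1.26 with Monuron. These bounds hold for this scaling: with scaling over all probes, which moved the median of all miRNAs to -0.33 with 2-acetylaminofluorene, miR-26a there was at -0.45 and was called (limma adjusted p = 0.0208), or -0.12 relative to that median. With the 75th percentile of the spots, chosen after the dim spots had been seen, the largest miR-26a differences were those of Diethylhexylphthalate (-0.21, adjusted p = 0.187) and Benzophenone (-0.20, 0.321), and Methapyrilene HCl, whose replicate 2 read 1.89 in place of 1.57, was at -0.15. Benzophenone replicate 4, without dim miR-26 spots, read 1.49 in place of 1.78. On that summary 2-acetylaminofluorene was at -0.15, Monuron at 0.07, Chlorendic Acid at -0.02, and Diethylthiourea and Phenobarbital at -0.01, so the order of the diets and the sign of the smallest differences depended on the summary.

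For miR-26b the largest difference was that of 2-acetylaminofluorene, at 0.808-fold (log2 -0.31 ± 0.13 SE, 95% interval -0.57 to -0.05, unadjusted p = 0.0224, limma adjusted p = 0.111), with 4 of 5 animals below the control mean. Without 2-acetylaminofluorene replicate 3 it was -0.17 (limma adjusted p = 0.476). Methapyrilene HCl differed by -0.23 ± 0.14 (-0.50 to 0.05, adjusted p = 0.406) and Benzophenone by -0.22 ± 0.13 (-0.48 to 0.04, adjusted p = 0.581). Diethylthiourea differed by -0.08, Diethylhexylphthalate by -0.05, Chlorendic Acid by 0.03, Phenobarbital by 0.02 and Monuron by 0.01, with adjusted p from 0.820 to 1. Intervals for these 5 diets reached no further than -0.36 and 0.32.

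The control side of the miR-26b comparison depended on how the 10 spots were summarised. With the 75th percentile of the spots, control replicate 2 read 1.19 in place of 0.78, and the controls narrowed to between 1.07 and 1.19 (1.15 ± 0.052, SD, n = 5). The 2-acetylaminofluorene levels then were 0.89, 0.76, 0.27, 1.09 and 0.81 (0.766 ± 0.304, n = 5), of which 4 lay below every control. This was not particular to that diet. Levels below every control also occurred with Benzophenone (lowest 0.59), Methapyrilene HCl (0.77), Diethylhexylphthalate (0.92), Monuron (0.96) and Diethylthiourea (0.97). With Phenobarbital and Chlorendic Acid none did. On this summary miR-26b was called lower with 2-acetylaminofluorene (log2 -0.39 ± 0.11 SE, limma adjusted p = 0.0163, 14.7% of all miRNAs called), and with the median of the spots it was also called (-0.40, adjusted p = 0.0277). Leaving out the 3 arrays with dim miR-26 spots gave -0.35 (adjusted p = 0.0939), with 3 control arrays in place of 5. Without 2-acetylaminofluorene replicate 3 the 75th percentile of the spots gave -0.26 (adjusted p = 0.0916), and with slide as a block -0.27 (adjusted p = 0.354), so the call rested on that replicate and was lost with the block. Benzophenone was at -0.30 ± 0.11 with the 75th percentile of the spots (adjusted p = 0.0854), and Methapyrilene HCl, whose replicate 2 then read 1.07 in place of 0.55, at -0.16 ± 0.12 (adjusted p = 0.526). The summary also moved arrays without dim spots of the 4 probes: Benzophenone replicate 4 read 0.82 in place of 1.08, and replicate 3 read 1.14 in place of 0.97. The other miR-26b differences on that summary were -0.14 with Diethylthiourea, -0.12 with Diethylhexylphthalate, -0.09 with Monuron, -0.04 with Phenobarbital and -0.02 with Chlorendic Acid, where the last 3 turned sign.

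**Figure D2:**
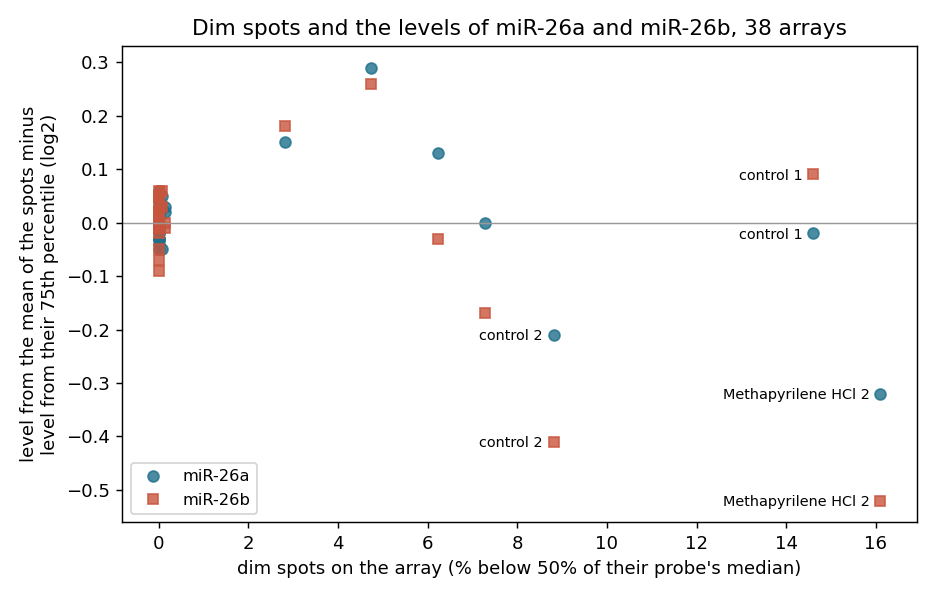
For each of 38 arrays, the share of spots that read under 50% of their probe's median (x axis, %) against the level from the mean of the spots minus that from their 75th percentile (y axis, log2), for miR-26a (circles) and miR-26b (squares). Most arrays lie near 0 on both axes, whereas Methapyrilene HCl replicate 2 and control replicate 2 fall below; the arrays between 2.81% and 7.29% have no dim spot of the 4 probes and lie on both sides of 0.

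**Figure D3:**
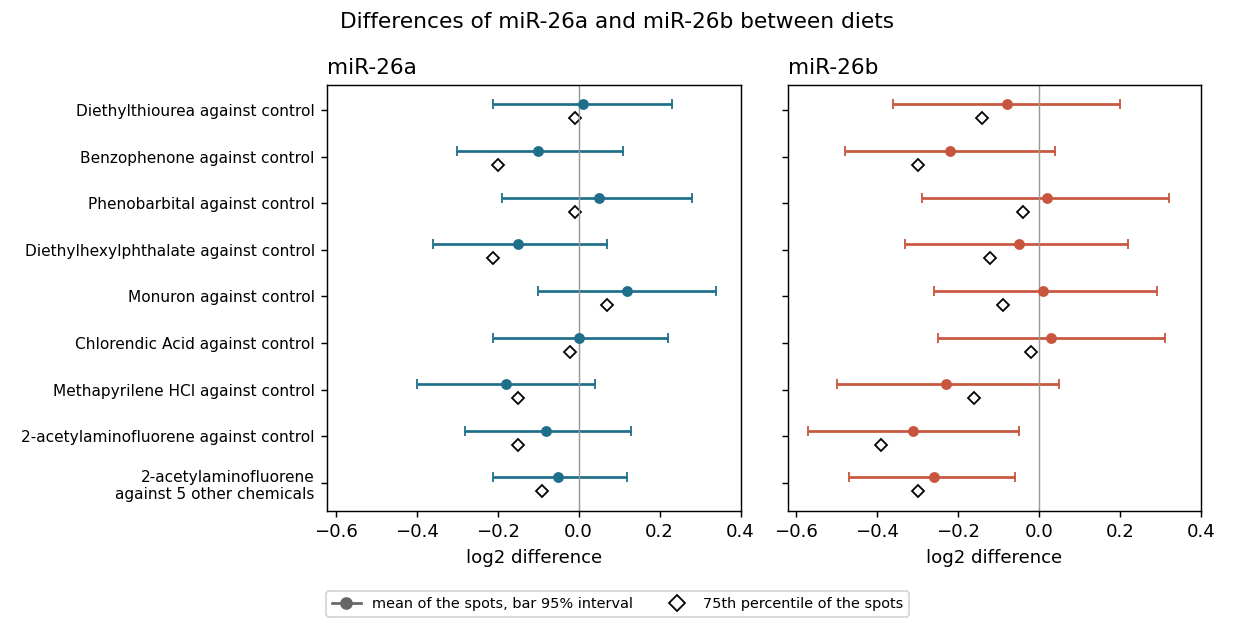
Log2 differences of miR-26a (left) and miR-26b (right) for each diet against control, and for 2-acetylaminofluorene against the mean of the other 5 tumour-causing chemicals. Circles with bars are the values from the mean of the spots with their 95% interval and diamonds those from the 75th percentile of the spots; for miR-26b only the 2-acetylaminofluorene intervals, which run from -0.57 to -0.05 and from -0.47 to -0.06, lie below 0.

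Set against the mean of the other 5 tumour-causing chemicals, miR-26b was lower with 2-acetylaminofluorene, at 0.833-fold, with mean levels of 0.788 and 1.05 (log2 -0.26 ± 0.10 SE, 95% interval -0.47 to -0.06, n = 5 against 19, limma adjusted p = 0.0454). Of all tested miRNAs 32.6% were called in this comparison, so 1 member of 2 is no departure from the rest of the array. miR-26a did not pass (-0.05 ± 0.08, adjusted p = 0.734). The call rested on few arrays: without 2-acetylaminofluorene replicate 3 the difference was -0.13 (adjusted p = 0.369). It also missed the threshold without 2-acetylaminofluorene replicate 2 (adjusted p = 0.0736) or 5 (0.0585), Phenobarbital 1 (0.0551) or 2 (0.0576), Diethylhexylphthalate 1 (0.0523) or 3 (0.0614), or Monuron 1 (0.0584) or 3 (0.0504). The same held without Chlorendic Acid 1 (0.052), 3 (0.0527) or 4 (0.0521) or Methapyrilene HCl 1 (0.0609) or 3 (0.0585), each with a difference between -0.28 and -0.25. With slide as a block it was -0.22 (adjusted p = 0.183). With the 75th percentile of the spots it was -0.30 (adjusted p = 0.00774, 37.2% called), and -0.18 (adjusted p = 0.104) when replicate 3 was left out as well. The 6 tumour-causing chemicals together did not differ from Diethylthiourea and Benzophenone, at 0.00 ± 0.06 for miR-26a (adjusted p = 0.964) and 0.06 ± 0.08 for miR-26b (0.655), where 6.2% of miRNAs were called.

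**Figure D4:**
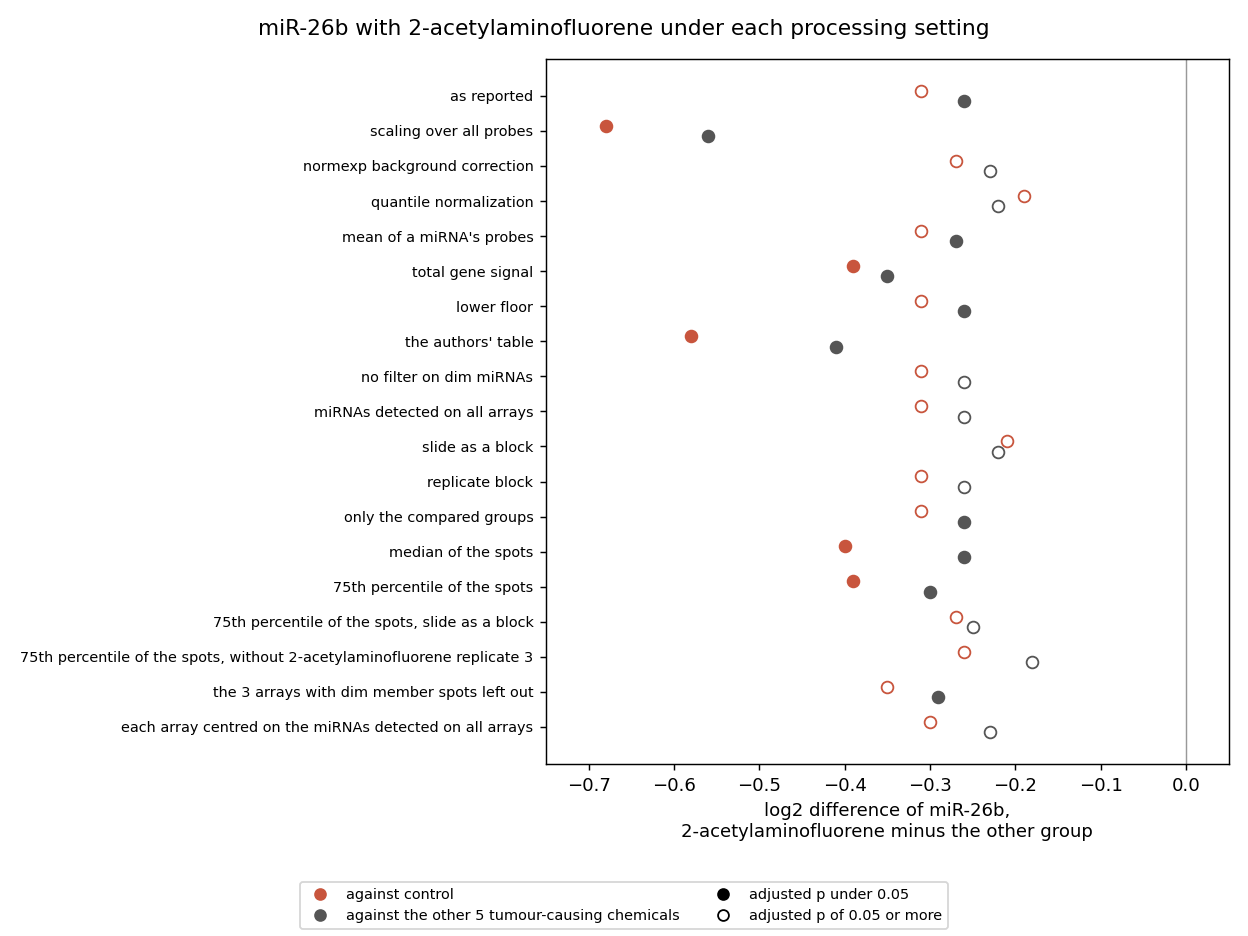
Log2 difference of miR-26b between 2-acetylaminofluorene and control (red), and between 2-acetylaminofluorene and the other 5 tumour-causing chemicals (dark grey), under each way of processing the arrays. Filled points have an adjusted p under 0.05; every value is below 0, from -0.68 to -0.18, and the side of the threshold changes with the setting.

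Each probe was also tested on its own, over 229 probes. The second probe of miR-26b, A_26_P00001228, which was not used for the levels above, was called lower with 2-acetylaminofluorene than with control (log2 -0.32 ± 0.11 SE, limma adjusted p = 0.0454, 12.2% of probes called). The brighter probe, A_26_P00001229, differed by -0.31 ± 0.13 (adjusted p = 0.105), so the 2 probes moved by nearly the same amount. Against the other 5 tumour-causing chemicals both were called, A_26_P00001228 at -0.27 (adjusted p = 0.0157) and A_26_P00001229 at -0.26 (0.047), where 31% of probes were. 2-acetylaminofluorene replicate 3 is among the arrays with dim spots, at 6.24% of its spots. None of its spots of the 4 probes was dim, and 36 of 40 were used. The spots of A_26_P00001228 there spread by a CV of 7.55%, and those of A_26_P00001229 by 23.2%. The 2 probes of miR-26a, A_26_P00002571 (used, mean level 1.84) and A_26_P00001225 (mean level 1.21), did not pass with 2-acetylaminofluorene, where they differed from control by -0.08 ± 0.10 and 0.01 ± 0.13. On Methapyrilene HCl replicate 2, where dim spots were most frequent, the gap between the miR-26b probes lay 0.41 from its median over all arrays. On control replicate 1 the gap between the miR-26a probes lay -0.34 from its median. For 2-acetylaminofluorene replicate 3 the gaps lay 0.19 (miR-26a) and 0.13 (miR-26b) from these medians, and for control replicate 2 they lay 0.20 and 0.22 away.

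Because scaling cancels within an array, the level of miR-26a minus that of miR-26b shows whether the members moved unequally, without comparing their amounts. This difference was 0.89, 0.84, 1.73, 0.61 and 0.99 in the animals fed 2-acetylaminofluorene, against 0.19, 1.07, 0.95, 0.91 and 0.79 in control livers. Replicate 3 was thus the highest of all arrays, with miR-26a at 1.97, the highest of its group, and miR-26b at the lowest level. Control replicate 1 was the lowest of all arrays, with miR-26a low and miR-26b high. The other 36 arrays lay between 0.56 and 1.13. The mean was 1.01 ± 0.426 with 2-acetylaminofluorene and 0.78 ± 0.345 with control (SD, n = 5 each), a difference of 0.23 (exact two-sided permutation p = 0.452, adjusted p = 0.982). The 95% interval of -0.07 to 0.54 is from limma, with a spread pooled over all groups, and not from the permutation test. The difference was 0.05 without 2-acetylaminofluorene replicate 3 and 0.08 without control replicate 1. No diet passed: over the 8 diets the differences ran from -0.09 with Diethylhexylphthalate to 0.23, with exact adjusted p of 0.982 in each. The smallest p these group sizes allow is 0.00794, or 0.0179 for Phenobarbital. With the 75th percentile of the spots the same arrays stood apart, at 1.57 for 2-acetylaminofluorene replicate 3 and 0.30 for control replicate 1.

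**Figure D5:**
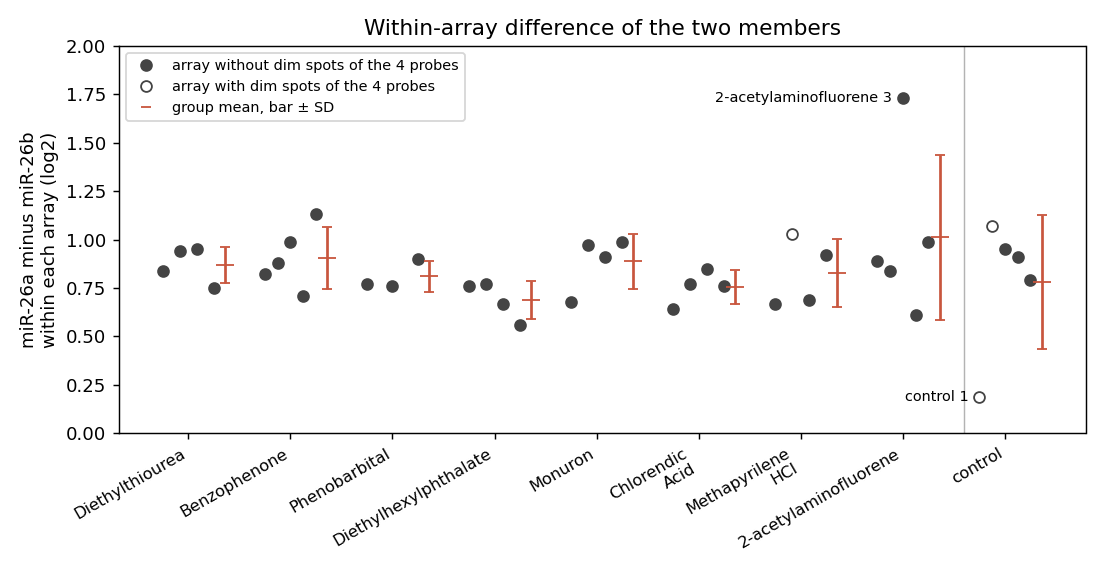
Level of miR-26a minus level of miR-26b (log2) on each of 38 arrays, by diet, with control at the right. Points are livers, open points the 3 arrays with dim spots of the 4 probes, and bars the group mean ± SD; 2-acetylaminofluorene replicate 3 (1.73) and control replicate 1 (0.19) lie outside the range of the other arrays.

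Slides held few pairs of a diet with control, and within a slide the differences did not keep 1 sign. On slide 3, 1 animal fed 2-acetylaminofluorene differed from 2 controls by -0.22 for miR-26a and 0.10 for miR-26b, and that is the only slide the chemical shared with control. One of these controls is replicate 2, with its dim spots, and with the median of the spots the miR-26b difference turned to -0.07. On slide 4 the only control is replicate 1, with its low miR-26a. There miR-26a differed by 0.41 with Diethylthiourea, 0.48 with Phenobarbital, 0.42 with Chlorendic Acid and 0.07 with Diethylhexylphthalate (-0.07 with the median of the spots). On slide 1, against 2 controls, the miR-26a differences were -0.20 with Diethylthiourea, -0.05 with Benzophenone, -0.11 with Phenobarbital and -0.28 with Chlorendic Acid. For miR-26b the slide 4 differences ran from -0.30 to -0.15 and the slide 1 differences from -0.11 to 0.06. For Monuron and Methapyrilene HCl no slide gives a value, and slide and diet were separated for them only through the other groups. Slides 5 and 6, without control, had the lowest mean miR-26b (0.872 and 0.921, against 0.997 to 1.11 on the others). These means include 2-acetylaminofluorene replicates 1 (0.94) and 3 (0.24) on slide 5 and 2 (0.80) and 5 (0.86) on slide 6. These slides also held Benzophenone replicates 5 (0.59) and 2 (0.58) and Methapyrilene HCl replicate 4 (0.79). Monuron replicate 1 (1.25) and Chlorendic Acid replicate 3 (1.15) were also on them. With slide as a block, miR-26b with 2-acetylaminofluorene differed from control by -0.21 (limma adjusted p = 0.572).

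The 2 members followed each other loosely. Over the 38 arrays their levels had a Pearson r of 0.326 and a Spearman rho of 0.419, and the deviations from the group means had 0.17 and 0.331. The arrays share slides and scaling. Without the 2 arrays farthest from the miR-26a median (control replicate 1 and Benzophenone replicate 2) r was 0.37. Within slides r ran from -0.281 on slide 4 (n = 7) to 0.857 on slide 6 (n = 7). The miRNAs most like miR-26a over the 38 arrays were miR-22 (r = 0.797), miR-361 (0.755), miR-24 (0.676), miR-30a (0.672) and miR-30d (0.667). Over the 9 group means they were miR-122 (0.786), miR-22 (0.764), miR-30c (0.724), miR-26b (0.674) and miR-23b (0.673). Those most like miR-26b over arrays were let-7f (0.764), miR-365 (0.748), miR-7a (0.669), miR-10a-5p (0.649) and miR-192 (0.641), and over group means miR-365 (0.847), let-7f (0.811), miR-148b-3p (0.800), let-7a (0.793) and miR-92a (0.792). The arrays' lists for the 2 members share no miRNA. 2-acetylaminofluorene replicate 3, lowest for miR-26b, was also the lowest of its group for let-7f (2.12, against 2.62 to 3.12 in the other 4) and miR-365 (-0.78, against -0.41 to -0.30). Without it r with let-7f was 0.655 and with miR-365 0.681. Of these 16 miRNAs, miR-26b aside, 8 matched 1 RefSeq sequence by name, and 0 of the 8 carried the miR-26 seed. No other outcome was possible, as only the 2 members carry this seed among the rat mature miRNAs in RefSeq.

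Other miRNAs described as liver tumour suppressors moved in both directions. With 2-acetylaminofluorene 5 of 29 tested (17.2%) were called against control, 3 higher and 2 lower, with a median difference of -0.11 against -0.00 over all tested miRNAs, beside the 11.6% called over the whole array. miR-34a, which p53 induces, was higher by log2 5.10 ± 0.20 (limma adjusted p = 1.59e-20), with levels of -0.22 to 0.22 with 2-acetylaminofluorene and -5.50 to -4.53 in control. Control replicate 2 lay at the floor of -5.5 set for dim values, so this size depends in part on the floor. miR-199a-3p was higher by 0.55 ± 0.17 (limma adjusted p = 0.034). miR-99a was lower by -0.44 ± 0.11 (adjusted p = 0.00637) and miR-125b-5p by -0.46 ± 0.12 (0.0101). Against the other 5 tumour-causing chemicals 9 of 29 (31%) were called, 3 higher and 6 lower, beside 32.6% over the array. Those with the smallest adjusted p were, among the lower, let-7d (-0.44, adjusted p = 0.00132), let-7f (-0.39, 0.00859) and, of those that were higher, miR-497 (0.41, 0.0107) and miR-34a (4.21, 5.09e-21). Of 14 tested tumour promoting miRNAs (21 listed), 2 (14.3%, beside 11.6% over the array) were called against control, miR-181a (0.54, adjusted p = 0.0182) and miR-93 (0.31, 0.0434). Both were higher. With Chlorendic Acid 10 of 29 suppressors (34.5%) were called, 5 higher and 5 lower, beside 29.5%, with both miR-26 members near 0. With Diethylthiourea 0 of 29 suppressors were called, beside 0% over the array, and with Phenobarbital 0 of 29, beside 3.88%.

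Markers of other liver cells moved with 2-acetylaminofluorene, and some of them also with other diets, in which miR-26b differed from control by -0.23 to 0.03. With 2-acetylaminofluorene 3 of 5 stellate cell and fibroblast miRNAs were called higher than in control, beside 11.6% of all tested miRNAs (mean level -3.25 to -2.60 per animal, against -3.60 to -3.23 in control). All 3 tested of 5 bile duct and other epithelial miRNAs were also higher (-4.60 to -3.81, against -5.19 to -5.01). Of that list miR-141 was detected on 0 arrays and miR-200c, which was not tested, on 16. Among the tested 3, miR-429 was detected on 17 arrays and miR-200a on 33. Both reached the floor of -5.5, so these sizes depend in part on the floor. The epithelial miRNAs were highest with Phenobarbital (-3.52 to -3.22, 3 of 3 called higher, beside 3.88% of all tested miRNAs), where miR-26b differed from control by 0.02. With Chlorendic Acid (-4.53 to -4.19) 2 of 3 were called higher, beside 29.5%, and miR-26b differed by 0.03. The same count held with Diethylhexylphthalate (beside 14.7%), Benzophenone (4.65%) and Methapyrilene HCl (4.65%), where miR-26b differed by -0.05, -0.22 and -0.23. With Methapyrilene HCl the stellate cell miR-199a-3p was also called higher. None of the 3 was called with Diethylthiourea or Monuron. The 3 hepatocyte miRNAs had mean levels of 2.73 to 3.02 with 2-acetylaminofluorene and 3.00 to 3.16 in control, and none of them was called. Of the leukocyte list 0 of 4 tested (6 listed, 5 on the array) were called, with mean levels of -2.71 to -2.50 against -3.39 to -2.70. The endothelial miR-126 lay at 0.372 to 0.697 against 0.594 to 0.814, and the red cell miR-451 at 0 to 0.868 against -0.296 to 0.168. The part of these cells in the miR-26b difference was not tested.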

How the data were processed

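Cy3-labelled total RNA of 38 rat livers was hybridised to 1-colour Agilent miRNA arrays, 1 per animal. Per the file headers, the deposited files were written by Feature Extraction 10.5.1.1 and give linear fluorescence intensity for each spot. The authors' deposited table holds log2 values of 167 miRNAs, which for 99.4% of 6293 values differ by under 0.01 from log2 total gene signal less an array constant of unstated origin. Here control and outlier spots were dropped and the spots of a probe averaged. Signals were scaled to each array's 75th percentile among the 137 probes found on all arrays (423.9 to 1086 signal units), and anything below the 5th percentile of detected values was raised to it (log2 -5.5). Detection required over 50% of a probe's spots well above background. The brightest probe stood for its miRNA, which was detected where any of its probes was.

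One model of all 9 groups was fitted to 129 miRNAs, or 229 probes, with lmFit and eBayes (limma 3.58.1, R 4.3.3), and p was adjusted by Benjamini-Hochberg at a threshold of 0.05. The within-array difference had an exact permutation test. The scripts were tested on simulated data. Groups came from the labels. Other settings changed the scaling, background correction, normalization, probe summary, floor, filter, value table, samples fitted and blocks (slide, replicate number), and left out each array. Chosen after seeing the data were the median and 75th percentile of the spots (the percentile also with slide as a block or without 1 array), leaving out the 3 arrays with dim spots, centring, and limma for the within-array difference. The 2 members, the lists and the likeness rule (the 5 highest Pearson r over arrays, and over group means) were chosen with earlier results of these data known. From a list, up to 4 called members with the smallest adjusted p are named. The number of arrays limits the precision.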

Additional observations from a re-analysis of the deposited data

How the results depend on the processing

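Over the alternatives the difference of miR-26b between 2-acetylaminofluorene and control stayed below 0, from -0.68 to -0.19, and it passed the threshold under 5 of 17. These were scaling over all probes (-0.68, adjusted p = 0.0159), the total gene signal (-0.39, 0.0111), the authors' table (-0.58, 0.0154), the median of the spots (-0.40, 0.0277) and the 75th percentile of the spots (-0.39, 0.0163). Leaving out 1 array gave -0.39 to -0.17 (the smallest without 2-acetylaminofluorene replicate 3), and it passed without 2-acetylaminofluorene replicate 4 (-0.39, adjusted p = 0.048). Against the other 5 tumour-causing chemicals the miR-26b call was lost with normexp (-0.23, adjusted p = 0.262), quantile normalization (-0.22, 0.0538), no filter (-0.26, 0.0508), only miRNAs present on each of the 38 arrays (-0.26, 0.054), a slide block (-0.22, 0.183), centring (-0.23, 0.0626), the 75th percentile of the spots with slide as a block (-0.25, 0.053) and the same summary without 2-acetylaminofluorene replicate 3 (-0.18, 0.104). Leaving out 1 array gave -0.34 to -0.13. The cause was not tested, except that the filters change how many miRNAs p is adjusted over. Scaling over all probes moved the median of all miRNAs for 2-acetylaminofluorene to -0.33 against control (-0.00 as reported) and to -0.29 against the other 5 (-0.03 as reported). There miR-26a was called (-0.45, adjusted p = 0.0208, and -0.34, 0.0154), and relative to those medians miR-26a lay at -0.12 and -0.05 and miR-26b at -0.35 and -0.27. With that scaling probe A_26_P00001225 of miR-26a was at -0.28 against the other 5, where it was 0.01 as reported. The F test of miR-26b passed with the total gene signal (F 3.18), the median (2.80) and the 75th percentile of the spots (2.57). Same-numbered animals did not deviate together (mean correlation -0.003 over 139 pairs), and 6 of 38 arrays correlated best with their own number; the labels give the numbers no meaning across diets. With replicate number as a block the miR-26b difference from the other 5 was -0.26 (adjusted p = 0.0559), and no call against control changed. For the other diets no alternative gave a call for either miRNA against control.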
